A study of Arabidopsis thaliana with 18 samples.

Results

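The genes described here encode enzymes that build plant sterols and turn them into brassinosteroids, or that inactivate these hormones. They were listed by locus, 29 in all, from mevalonate and squalene through the sterol ring to the hormone. A member was measured where the authors' differential expression table held a probe set naming that locus alone, which was the case for 20 of 29, out of 6481 such genes in the table. The other 9 (SQS1, SQE1, CYP51G1, STE1, SMO2-1, 3BETAHSD/D1, DET2, ROT3 and BR6OX1) are not analysed here.

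The samples were whole seedlings of Arabidopsis thaliana, in the Col-0 background, grown on 1/2MS medium without sucrose and profiled on Affymetrix ATH1 arrays. Wild type (WT) was set beside jmj17-1, a mutant of the gene for JMJ17, an H3K4 demethylase of the JmjC family, which removes methyl groups from histone H3. Each genotype was kept 4 days in the dark (3 arrays), or was then given 2, 4 or 8 h of light (2 arrays each), which makes 18 arrays in 8 groups. The mutant is a single allele. Nothing in the labels says whether replicates came from separate cultures, so the p-values reflect the spread among arrays that may be technical replicates; the number of arrays limits the precision.

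Plant sterols are membrane lipids, and campesterol among them is the starting material of the brassinosteroids. These hormones drive the elongation of the hypocotyl in darkness, and Arabidopsis mutants that cannot make them look light-grown in the dark. The hormone is known to lower transcripts of its own synthesis genes DWF4 and CPD and to raise those of its inactivating enzyme BAS1.

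Every value below is a log2 intensity after RMA (the authors' summary of an array's probes), and a difference is a difference of group means on that scale, with its standard error from limma fitted on all 18 arrays. A gene passed, and is said to have risen or fallen, at an adjusted p under 0.05 (limma, Benjamini-Hochberg over 6847 probe sets). Shares of all probe sets, and of dimmer ones, are counted over these 6847 and not over the whole array. Intensities of different genes are not set against each other, since probe sets differ in brightness.

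The authors do not state which comparison their table's rows were chosen on. Every probe set kept had an unadjusted p of at most 0.0237 (limma) between the mutant after 2 h of light and the mutant in the dark, against 9.81% of the other probe sets under 0.05. The measured members were thus in effect selected on that contrast, which is only described: 18 of the 20 were lower and 2 higher in the light, with a median difference of -0.49 and a range from -2.42 (BAS1) to 0.64 (BR6OX2), and SMO2-2 was the closest to 0, at 0.28. The median over all probe sets in this contrast was -0.34. For all 20 members the arrays of these groups did not overlap, a separation that selection on this contrast favours. The share of all probe sets without overlap was not counted here. Probe sets left out of the table carry no gene name in the files used, so members outside it are not analysed here. The mutant's dark or 2 h arrays also enter its other comparisons with dark, the interactions, and the genotype comparisons in the dark, at 2 h and averaged. The wild type comparisons, the mutant at 8 h against 4 h, and the genotype comparisons at 4 h and 8 h use none of those arrays in their means, although the spread is pooled.

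Light-harvesting genes followed the light labels: LHCA1 was 9.14, 9.33 and 9.18 in the dark, 12.28 and 12.28 after 2 h, 12.58 and 12.67 after 4 h, and 12.76 and 12.76 after 8 h in wild type. The authors' other file labels 16 of the 18 arrays differently, and the table whose columns carry the sample titles was used. No value used here checks the genotype labels, on which every difference between jmj17-1 and wild type rests, since JMJ17 itself is not analysed here. Mutant dark replicate 2 stood apart, with LHCB6 at 9.44, 10.85 and 9.35 in mutant dark replicates 1, 2 and 3, and a mean correlation with its group of 0.985 against 0.990 for both other arrays. The summed intensity of 3 of 5 photosynthetic markers was 2222 to 2513 in wild type and 1980 to 4888 in the mutant in the dark, and 15051 to 20823 over all light arrays. Of 12 root markers 4 were measured, and they summed to 2523 to 2601 in the wild type in the dark, 1818 to 1959 after 2 h, 2152 to 2371 after 4 h and 2359 to 2397 after 8 h. CASP1 made up most of that sum, and the 4 markers did not move together. From dark to 8 h the wild type means went from 10.96 to 10.88 for CASP1 and from 8.09 to 8.28 for SCR. They went from 7.13 to 6.69 for SHR and from 7.12 to 6.21 for EIR1. The dividing-cell marker CDKB2;1, 1 of 5, was 328 to 349 in wild type in the dark and 180 to 184 after 8 h, and the 2 of 4 epidermal markers summed to 2766 to 2923 and to 2247 to 2375. None of the 4 seed storage markers was in the table. In a whole seedling, fewer cells of a type and less RNA per cell cannot be told apart, and the part of these tissues in the results below was not tested.

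**Figure D1:**
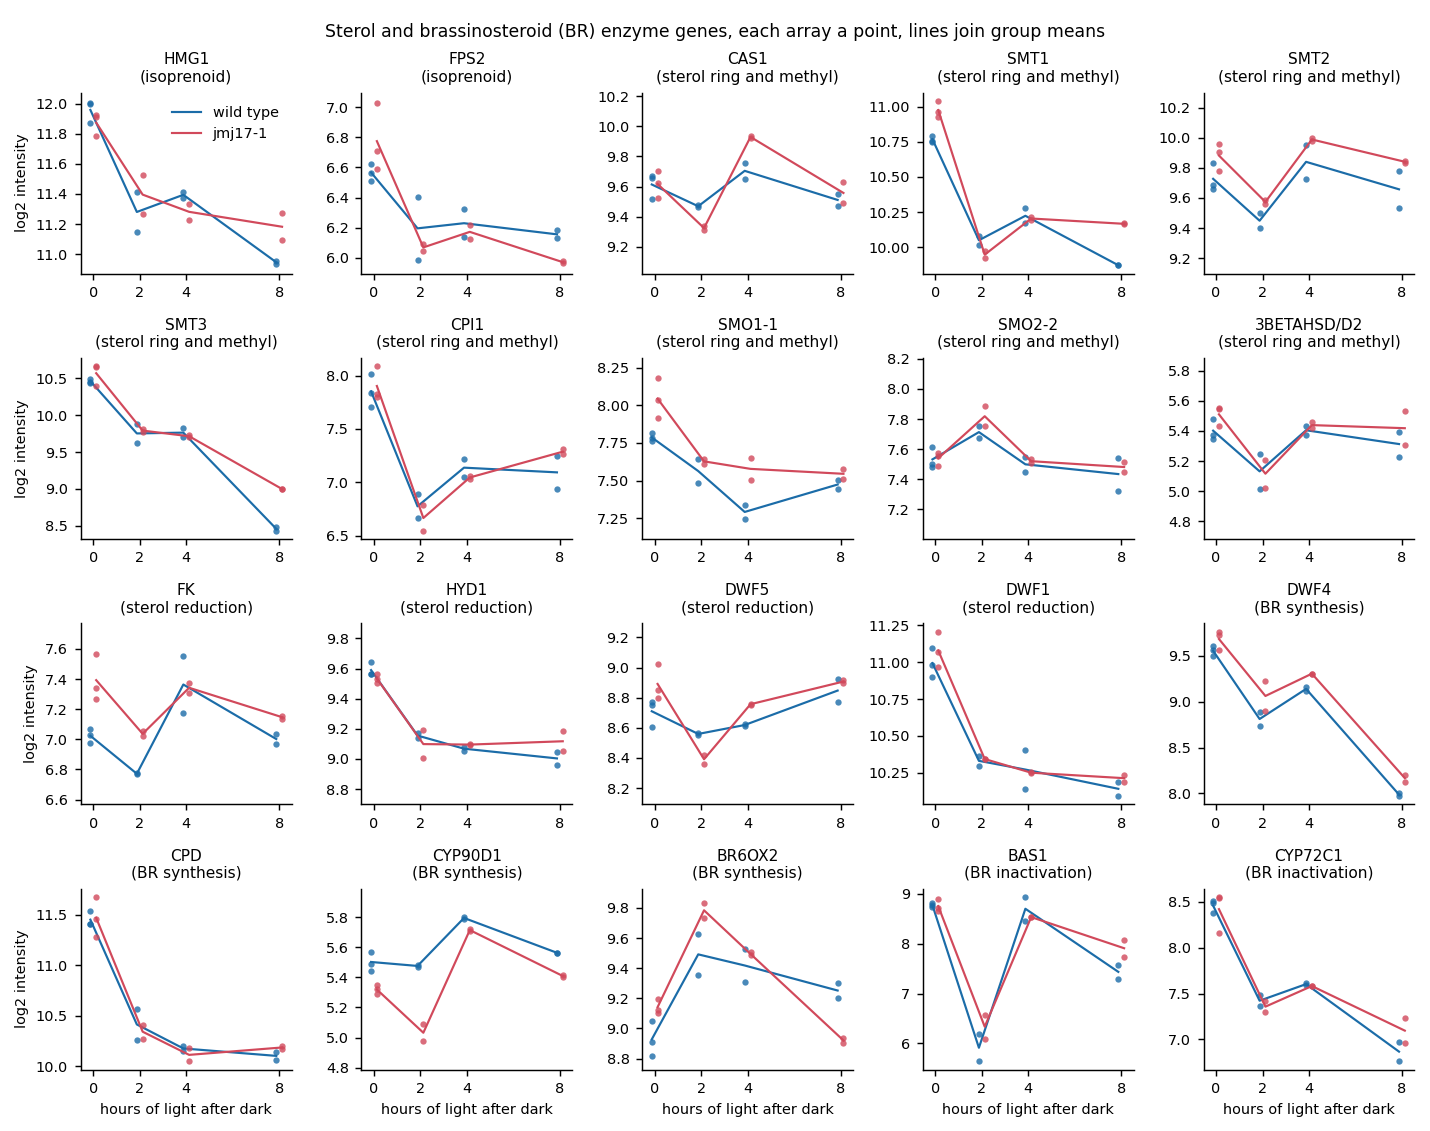
Log2 intensity (vertical axes, each fitted to its gene) of the 20 measured genes against hours of light after 4 days in the dark (horizontal axes), in wild type (blue) and jmj17-1 (red); each point is 1 array and lines join group means. Most genes stand highest at 0 h, BAS1 dips at 2 h and is back near its dark level at 4 h, and BR6OX2 stands higher in the light in wild type.

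Most of the measured members were lower in the light in wild type. They lie among rows in effect selected on a light response in the mutant. Their counts do not extend to the 9 listed genes that were not measured. After 2 h of light 15 of the 20 members had fallen and 2 had risen, where 49.0% of all probe sets fell and 40.5% rose, 89.5% together. After 4 h 11 had fallen and 3 had risen (40.1% and 31.3% of all probe sets, 71.5% together), and after 8 h 12 had fallen and 1 had risen (48.6% and 31.7%, 80.3% together). Most rows of the table passed in the light, and the members' totals of 17, 14 and 13 of 20 are read against that background. The median member differed from dark by -0.40, -0.38 and -0.50 at 2, 4 and 8 h, beside -0.21, -0.10 and -0.20 over all probe sets. A second quantile normalization moved the median of all probe sets at 2 h to -0.34 and that of the members to -0.52, so that at 2 h the members' median stood about as far below the rest under either scaling. Light and dark arrays did not overlap for 93.2%, 80.6% and 88.5% of all probe sets at 2, 4 and 8 h, so that arrays without overlap were the rule and not the exception. Fallen at all 3 times were 11 of the 20 members, where 33.2% of all probe sets were: HMG1, FPS2, SMT1, SMT3, CPI1, HYD1, DWF1, SMO1-1, DWF4, CPD and CYP72C1. Without wild type 2 h replicate 1, FPS2 did not pass at 2 h (difference -0.16, adjusted p = 0.269, limma), and SMO1-1 did not pass there in 3 of the alternatives tried (adjusted p up to 0.216, limma).

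**Figure D2:**
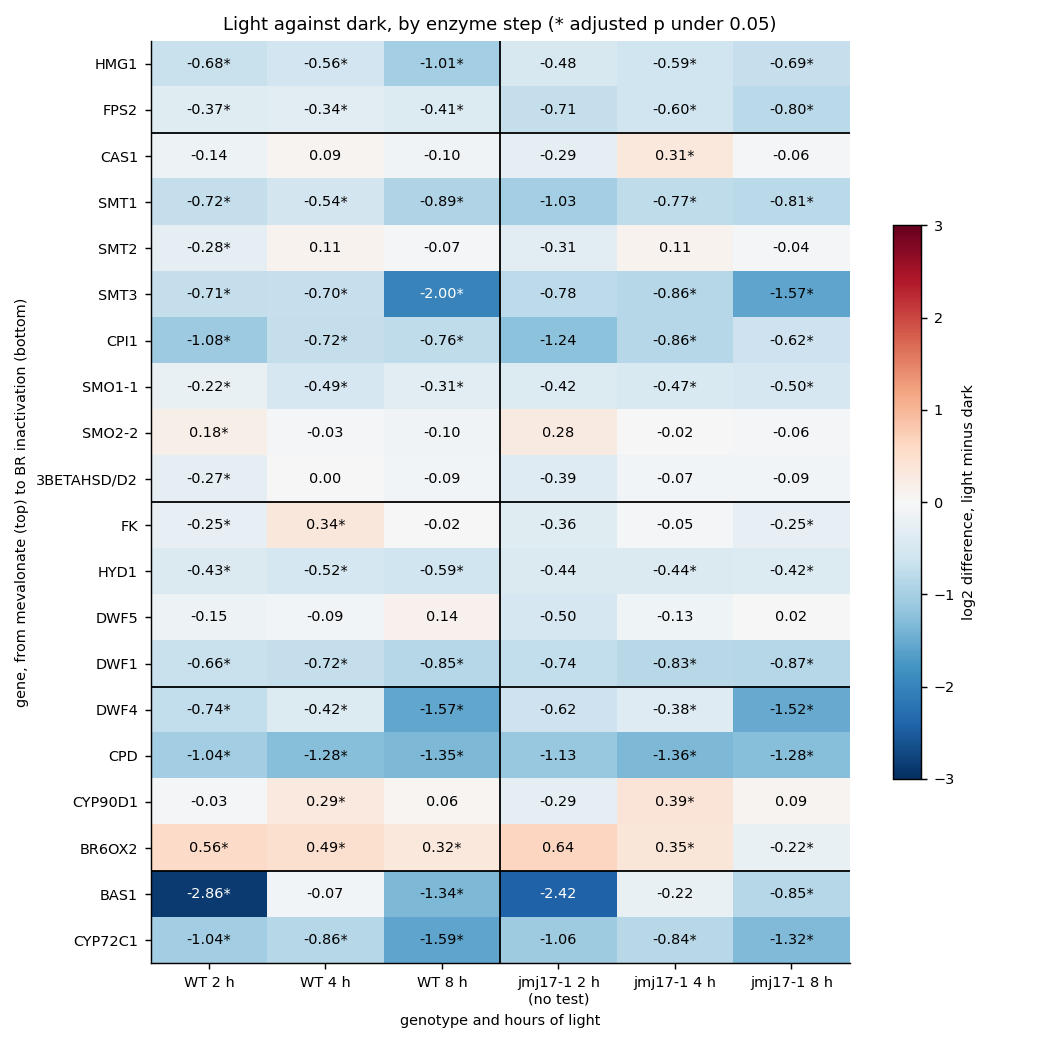
Log2 difference from dark (colour and printed value) of each gene, ordered by enzyme step from mevalonate at the top to brassinosteroid inactivation at the bottom, for wild type and jmj17-1 after 2, 4 and 8 h of light. Asterisks mark an adjusted p under 0.05 (limma); the mutant's 2 h column has no test, since the table's rows were in effect selected on that contrast.

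At the head of the pathway, HMG1 (AT1G76490) encodes HMG-CoA reductase, which makes mevalonate and is the main control point of the route. Its log2 intensity in wild type was 11.87, 12.01 and 12.00 in the dark, 11.14 and 11.42 after 2 h, 11.42 and 11.37 after 4 h, and 10.96 and 10.94 after 8 h. HMG1 in jmj17-1 was 11.93, 11.79 and 11.91 in the dark, 11.26 and 11.53 after 2 h, 11.23 and 11.34 after 4 h, and 11.27 and 11.09 after 8 h. Dark and light arrays did not overlap in either genotype. HMG1 fell in wild type by 1.6-fold after 2 h (difference -0.68 ± 0.10) and 2.02-fold after 8 h (-1.01 ± 0.10, adjusted p = 2.15e-07, limma). It fell again between 4 and 8 h in wild type (-0.45 ± 0.11). The mutant's difference over the same hours was -0.099 ± 0.11 and did not pass, and the difference between the genotypes over these hours was not tested. FPS2 (AT4G17190), a farnesyl diphosphate synthase, fell in wild type by less, with differences from dark of -0.37, -0.34 and -0.41. The 4 h call was lost when any 1 of 3 wild type arrays was left out (adjusted p up to 0.192, limma).

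In the sterol ring, methylation and demethylation steps, 8 of 11 listed members were measured, and in wild type 6 fell and 1 rose at 2 h, 4 fell at 4 h and 4 fell at 8 h. Over all probe sets 49.0% fell and 40.5% rose at 2 h, 40.1% fell at 4 h and 48.6% fell at 8 h, so that the count at 8 h is about the background. CAS1, cycloartenol synthase, which folds squalene epoxide into the first plant sterol, passed at none of these times in wild type, with differences of -0.14, 0.091 and -0.10. CAS1 was higher in mutant seedlings at 4 h than in the dark (0.31 ± 0.080). It also rose from 2 to 4 h in wild type. The difference between the genotypes in the 4 h response from dark, 0.22, did not pass.

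Of the sterol methyltransferases, SMT1 and SMT3 fell at all 3 light times in wild type, and SMT2 fell at 2 h. SMT1 (AT5G13710) adds the first methyl group to the sterol side chain, and SMT2 and SMT3 add the second, which directs sterols to sitosterol rather than to campesterol. SMT1 log2 intensity in wild type was 10.75, 10.76 and 10.79 in the dark, 10.02 and 10.08 after 2 h, 10.17 and 10.28 after 4 h, and 9.87 and 9.87 after 8 h. In jmj17-1 SMT1 was 10.93, 11.04 and 10.96 in the dark, 9.92 and 9.97 after 2 h, 10.19 and 10.22 after 4 h, and 10.17 and 10.16 after 8 h. All light arrays lay below all dark arrays in each genotype, with differences in wild type of -0.72 ± 0.068 at 2 h and -0.89 ± 0.068 at 8 h (adjusted p = 9.33e-09, limma). SMT3 (AT1G76090) gave 10.44, 10.46 and 10.49 in the dark, 9.62 and 9.89 after 2 h, 9.70 and 9.83 after 4 h, and 8.48 and 8.43 after 8 h in wild type. In the mutant its values were 10.39, 10.66 and 10.65 in the dark, 9.81 and 9.77 after 2 h, 9.70 and 9.73 after 4 h, and 9.00 and 9.00 after 8 h. The 8 h arrays stood lowest in both genotypes and overlapped no other group: the wild type difference was level from 2 to 4 h (-0.71 and -0.70) and -2.00 ± 0.094 at 8 h, 4.01-fold lower than in the dark (adjusted p = 5.66e-11, limma). SMT2, for the same step, differed from dark by -0.28, 0.11 and -0.070 in wild type, and the 4 h and 8 h differences did not pass. That 2 h call was lost without wild type dark replicate 2 or without wild type 2 h replicate 2 (adjusted p up to 0.0921, limma), and the difference between SMT2 and SMT3 in response was not tested.

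CPI1 (AT5G50375), the isomerase that opens the cyclopropane ring of early plant sterols, was 8.02, 7.71 and 7.83 in the dark, 6.89 and 6.66 after 2 h, 7.05 and 7.22 after 4 h, and 7.25 and 6.93 after 8 h in wild type. Its mutant values were 7.83, 8.09 and 7.79 in the dark, 6.78 and 6.55 after 2 h, 7.03 and 7.06 after 4 h, and 7.31 and 7.27 after 8 h. The arrays of 2 h stood lowest in both genotypes, and no light array reached a dark one. CPI1 fell 2.11-fold after 2 h in wild type (-1.08 ± 0.13) and was 1.69-fold lower after 8 h (-0.76 ± 0.13, adjusted p = 5.15e-05, limma). Among the enzymes that remove methyl groups from the ring, SMO1-1, a C-4 sterol methyl oxidase, fell at all 3 times in wild type (-0.22, -0.49 and -0.31). SMO2-2 was the 1 member of this step to pass upward, by 0.18 ± 0.082 at 2 h, and 21 of the 25 alternatives tried lost that call. 3BETAHSD/D2, a decarboxylase of the same steps, differed by -0.27 at 2 h and by 0.003 and -0.089 later, and passed at 2 h only, a call lost without wild type dark replicate 2 or wild type 2 h replicate 2 (adjusted p up to 0.222, limma). Its wild type 2 h signal was dim, with 13.1% of probe sets dimmer still, so the size of that difference is not established.

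Of the reductases and isomerases that finish the sterol, 4 of 5 were measured. DWF1 (AT3G19820), which completes campesterol and sitosterol and so supplies the precursor of the hormone, was 10.90, 11.10 and 10.98 in the dark, 10.30 and 10.37 after 2 h, 10.14 and 10.40 after 4 h, and 10.19 and 10.09 after 8 h in wild type. DWF1 in jmj17-1 was 11.07, 11.21 and 10.97 in the dark, 10.35 and 10.34 after 2 h, 10.25 and 10.25 after 4 h, and 10.24 and 10.19 after 8 h. Light arrays were all below dark arrays, and DWF1 fell 1.58-fold at 2 h (-0.66 ± 0.093) and 1.8-fold at 8 h (-0.85 ± 0.093, adjusted p = 6.12e-07, limma). HYD1 (AT1G20050), a sterol isomerase, was 9.64, 9.56 and 9.57 in the dark, 9.14 and 9.17 after 2 h, 9.05 and 9.08 after 4 h, and 9.05 and 8.96 after 8 h in wild type. Its values in jmj17-1 were 9.51, 9.53 and 9.56 in the dark, 9.19 and 9.00 after 2 h, 9.09 and 9.10 after 4 h, and 9.05 and 9.18 after 8 h. Here too no light array overlapped a dark one, with wild type differences between -0.43 and -0.59 (adjusted p = 3.6e-06 at 8 h, limma). DWF5, the reductase just before DWF1, passed at no light time in either genotype's tests, and its wild type differences ran from -0.15 to 0.14.

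FK (FACKEL, AT3G52940), a sterol reductase needed for embryo patterning, moved both ways. Its wild type values were 7.03, 6.97 and 7.07 in the dark, 6.77 and 6.77 after 2 h, 7.17 and 7.55 after 4 h, and 6.97 and 7.04 after 8 h. In wild type the arrays of 2 h were lowest and those of 4 h highest. FK fell at 2 h (-0.25 ± 0.10) and stood above dark at 4 h (0.34 ± 0.10), but without wild type 4 h replicate 2 the 4 h difference was 0.15 (adjusted p = 0.228, limma).

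In brassinosteroid synthesis, 4 of 7 members were measured, and DWF4 and CPD fell while BR6OX2 rose. DWF4 (AT3G50660), a cytochrome P450 that hydroxylates the side chain, catalyses the rate-limiting step. DWF4 log2 intensity in wild type was 9.57, 9.60 and 9.50 in the dark, 8.73 and 8.89 after 2 h, 9.11 and 9.17 after 4 h, and 8.00 and 7.97 after 8 h. DWF4 in jmj17-1 was 9.77, 9.56 and 9.73 in the dark, 8.90 and 9.23 after 2 h, 9.31 and 9.31 after 4 h, and 8.20 and 8.13 after 8 h. The wild type level fell by 2 h, stood higher again at 4 h, and was lowest at 8 h, with no overlap between neighbouring times. Against dark DWF4 was 1.68-fold lower at 2 h (-0.74 ± 0.096), 1.33-fold lower at 4 h (-0.42 ± 0.096) and 2.97-fold lower at 8 h (-1.57 ± 0.096, adjusted p = 9.28e-10, limma). Between 4 and 8 h alone it fell by 1.15 ± 0.11 in wild type and decreased by 1.14 ± 0.11 in jmj17-1, the second from arrays that did not enter the choice of rows.

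CPD (AT5G05690), the P450 whose loss dwarfs the plant, was 11.41, 11.54 and 11.41 in the dark, 10.57 and 10.26 after 2 h, 10.15 and 10.20 after 4 h, and 10.14 and 10.07 after 8 h in wild type. In the mutant CPD gave 11.68, 11.46 and 11.27 in the dark, 10.27 and 10.41 after 2 h, 10.18 and 10.05 after 4 h, and 10.20 and 10.17 after 8 h. Every light array was below every dark array, and from 4 to 8 h the wild type level did not pass again. CPD fell 2.05-fold at 2 h (-1.04 ± 0.11), 2.42-fold at 4 h and 2.55-fold at 8 h (-1.35 ± 0.11, adjusted p = 2.82e-08, limma). The mutant's differences from dark were -1.36 ± 0.11 at 4 h and -1.28 ± 0.11 at 8 h.

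BR6OX2 (CYP85A2, AT3G30180) oxidizes the ring in the last steps to castasterone and brassinolide. It is given in full because of values seen, not by the rule for named genes. In wild type BR6OX2 was 9.05, 8.91 and 8.82 in the dark, 9.63 and 9.35 after 2 h, 9.53 and 9.31 after 4 h, and 9.30 and 9.20 after 8 h. In jmj17-1 it was 9.12, 9.10 and 9.20 in the dark, 9.73 and 9.83 after 2 h, 9.48 and 9.50 after 4 h, and 8.90 and 8.94 after 8 h. All wild type light arrays stood above all wild type dark arrays, while the mutant's 8 h arrays stood below its dark ones. BR6OX2 rose in wild type by 0.56 ± 0.097 at 2 h, 0.49 ± 0.097 at 4 h and 0.32 ± 0.097 at 8 h (adjusted p = 0.00656, limma). The 8 h call was lost without wild type 8 h replicate 1 (difference 0.28, adjusted p = 0.0607, limma). CYP90D1, a side-chain hydroxylase, was higher at 4 h than in the dark in wild type (0.29 ± 0.067) and did not pass at 2 h or 8 h. Its signal was low, with 19.9% of probe sets dimmer still in the dark and 22.5% at 4 h. The fit without the dimmest 40% of probe sets left it out, so the size of that rise is uncertain.

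Both inactivating enzymes were measured. BAS1 (CYP734A1, AT2G26710) hydroxylates active brassinosteroids and so ends their action. BAS1 log2 intensity in wild type was 8.73, 8.82 and 8.77 in the dark, 5.64 and 6.18 after 2 h, 8.47 and 8.94 after 4 h, and 7.58 and 7.29 after 8 h. BAS1 in jmj17-1 was 8.89, 8.66 and 8.71 in the dark, 6.09 and 6.58 after 2 h, 8.54 and 8.53 after 4 h, and 8.08 and 7.74 after 8 h. The 2 h arrays were the lowest in both genotypes and overlapped no other group, the 4 h arrays overlapped the dark arrays in wild type, and the 8 h arrays lay between. In wild type BAS1 fell 7.27-fold at 2 h (-2.86 ± 0.18, adjusted p = 1.78e-09, limma), the furthest of the measured members. It rose 6.92-fold from 2 to 4 h (2.79 ± 0.20), to a difference from dark of -0.071 ± 0.18 that did not pass, and fell again by 8 h (-1.27 ± 0.20 against 4 h). CYP72C1 (AT1G17060), a related P450 whose overexpression dwarfs Arabidopsis, was 8.37, 8.49 and 8.51 in the dark, 7.48 and 7.36 after 2 h, 7.61 and 7.59 after 4 h, and 6.76 and 6.97 after 8 h in wild type. In the mutant CYP72C1 was 8.55, 8.16 and 8.55 in the dark, 7.30 and 7.42 after 2 h, 7.58 and 7.58 after 4 h, and 6.96 and 7.23 after 8 h. No light array of it overlapped a dark one, and it was 3.01-fold lower than in the dark after 8 h (-1.59 ± 0.12, adjusted p = 7.85e-09, limma).

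The order of change within the light period was read from the differences between neighbouring times in wild type. Between 2 and 4 h the arrays did not overlap for 70.8% of all probe sets, and between 4 and 8 h for 71.3%. From 2 to 4 h, 8 members rose and 1, SMO1-1, fell, where 20.4% of all probe sets rose and 26.8% fell (47.2% together). The 6 that had fallen by 2 h and then rose by 4 h were SMT2, CPI1, 3BETAHSD/D2, FK, DWF4 and BAS1, where 15.7% of all probe sets showed both calls. Both calls rest on the same pair of wild type 2 h arrays, so an error in those arrays would enter each of them. The count of members passing from 2 to 4 h was among the least steady: it was 9, but 3 when only the arrays of these times were fitted and 4 without wild type 4 h replicate 2. From 4 to 8 h, 8 members fell and 0 rose, where 22.4% of all probe sets fell and 17.3% rose (39.7% together). These were HMG1, SMT1, SMT3, CYP72C1, FK, DWF4, BAS1 and CYP90D1. In jmj17-1 over the same hours 7 fell and 0 rose (20.0% and 14.8% of all probe sets, 34.8% together), with SMT3 at -0.72 ± 0.10, BR6OX2 at -0.57 ± 0.11 and BAS1 at -0.63 ± 0.20. The BAS1 call there was lost without mutant 4 h replicate 1 or 2 or mutant 8 h replicate 2 (adjusted p up to 0.184, limma).

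In jmj17-1 most of the measured members were lower in the light as well. These comparisons share the mutant dark arrays with the contrast on which the rows were in effect selected. They are therefore not independent of that selection. At 4 h 11 members had fallen and 3 had risen against the mutant's dark arrays (44.4% and 31.9% of all probe sets, 76.3% together). At 8 h 14 had fallen and 0 had risen (47.7% and 31.1%, 78.9% together). Dark and light arrays of the mutant did not overlap for 84.7% of all probe sets at 4 h and 84.1% at 8 h, and its 4 and 8 h arrays for 75.5%. The median member differed from dark by -0.41 at 4 h and -0.56 at 8 h, beside -0.14 and -0.19 over all probe sets, and without mutant dark replicate 2 the members' medians were -0.42 and -0.48. BR6OX2 was among the 14, at -0.22 ± 0.097, but 15 of the 25 alternatives lost that call (adjusted p up to 0.162, limma). FK was another, at -0.25 ± 0.10, and 13 alternatives lost it.

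Few members differed between the genotypes. In the dark 0 of 20 passed, where 1.8% of all probe sets did (0.613% higher and 1.18% lower), with 6 at an unadjusted p under 0.05 (limma), beside 21.8% of all probe sets. Without mutant dark replicate 1, SMO1-1 and FK passed there, and without either wild type 4 h replicate FK did. At 2 h 1 passed (CYP90D1), where 5.27% of all probe sets did (0.979% higher and 4.29% lower). At 4 h 0 of 20 passed, where 2.72% did (0.862% higher and 1.85% lower), with 2 members at an unadjusted p under 0.05 (limma), beside 15.1% of all probe sets. At 8 h 1 passed (SMT3), where 1.27% did (0.789% higher and 0.482% lower). Averaged over the 4 times, 3 members were higher in jmj17-1 (SMO1-1, FK and DWF4) and 1 lower (CYP90D1), where 2.96% of all probe sets were higher and 5.8% lower (8.76% together). Passing or not, 15 of the 20 members were higher in jmj17-1 than in wild type before light, 10 after 2 h, 9 after 4 h and 17 after 8 h. All members were read from the same arrays, so a shared direction is not a count of independent results. The members' median difference, jmj17-1 minus wild type, was 0.097, -0.0016, -0.020 and 0.11 at these times, beside 0.022, -0.038, -0.013 and -0.0031 over all probe sets, and without mutant dark replicate 2 the dark values were 0.071 and 14 members higher.

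**Figure D3:**
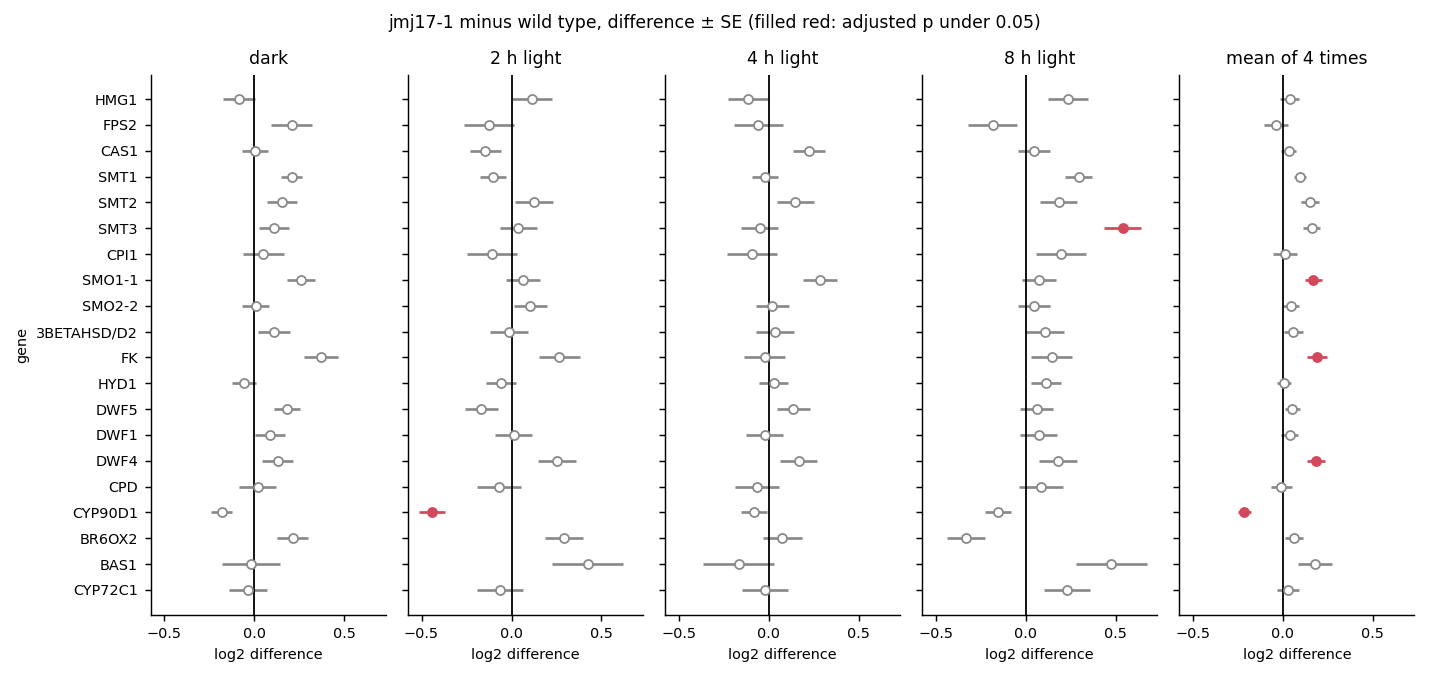
Log2 difference, jmj17-1 minus wild type (horizontal axes), with its standard error, for the 20 measured genes in the dark, at 3 light times and averaged. Filled red points passed at an adjusted p under 0.05 (limma): CYP90D1 at 2 h, SMT3 at 8 h and 4 genes in the average; most points lie near 0.

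SMT3 stood higher in the mutant after 8 h of light, with 9.00 and 9.00 in jmj17-1 against 8.48 and 8.43 in wild type. The pairs of arrays did not overlap, as was the case at 8 h for 49.8% of all probe sets in either direction (24.0% in the dark). The difference was 0.54 ± 0.10 (adjusted p = 0.0198, limma), and it did not pass when any 1 of these 4 arrays was left out (adjusted p up to 0.204, limma). SMT3 differed by 0.11 in the dark, 0.038 at 2 h and -0.049 at 4 h, none of which passed, and its genotype by light interaction at 8 h was 0.43 ± 0.13 (adjusted p = 0.0956, limma). The 4 measured root markers stood higher in jmj17-1 at 8 h as well, summing to 2683 to 2792 against 2359 to 2397 in wild type. Their arrays did not overlap, their median difference was 0.17, and none of the 4 passed, with 2 at an unadjusted p under 0.05 (limma). The dividing-cell marker CDKB2;1 was 197 to 213 in jmj17-1 against 180 to 184 in wild type at 8 h, and 266 to 317 against 328 to 349 in the dark, without overlap at either time and not passing at either (0.17 ± 0.12 and -0.26 ± 0.096). The part of root tissue or dividing cells in the SMT3 difference was not tested. SMT1 showed 0.29 ± 0.074 at 8 h and did not pass either (adjusted p = 0.0686, limma), but passed without mutant dark replicate 2.

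CYP90D1 (AT3G13730) was lower in the mutant. Its wild type values were 5.57, 5.49 and 5.44 in the dark, 5.47 and 5.48 after 2 h, 5.80 and 5.79 after 4 h, and 5.56 and 5.56 after 8 h. In jmj17-1 it was 5.32, 5.35 and 5.29 in the dark, 4.98 and 5.09 after 2 h, 5.71 and 5.72 after 4 h, and 5.42 and 5.40 after 8 h. The mutant arrays lay below the wild type arrays at each of the 4 times without overlap, as was the case in the dark for 24.0% of all probe sets in either direction, at 2 h for 53.6%, at 4 h for 49.1% and at 8 h for 49.8%. The difference at 2 h was -0.44 ± 0.074 (adjusted p = 0.00282, limma), and with the 4 arrays of that time alone its adjusted p was 0.0561 (limma). Averaged over the times it was -0.22 ± 0.035 (adjusted p = 0.00187, limma), and it passed in every alternative in which this probe set was kept. The filter on dim probe sets removed it. This average includes the mutant dark and 2 h arrays, so it is not independent of the selection either. CYP90D1 was dim at 2 h, with 12.4% of probe sets dimmer still in jmj17-1 and 17.2% in wild type. The sizes of the 2 h and average differences are therefore not established.

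FK, SMO1-1 and DWF4 were higher in the mutant in the average alone. FK in jmj17-1 was 7.27, 7.57 and 7.34 in the dark, 7.05 and 7.02 after 2 h, 7.37 and 7.31 after 4 h, and 7.16 and 7.14 after 8 h, and its average difference was 0.19 ± 0.055 (adjusted p = 0.0431, limma). SMO1-1 (AT4G12110) in wild type was 7.81, 7.79 and 7.76 in the dark, 7.64 and 7.48 after 2 h, 7.25 and 7.34 after 4 h, and 7.50 and 7.45 after 8 h. In jmj17-1 it was 7.91, 8.18 and 8.04 in the dark, 7.61 and 7.64 after 2 h, 7.65 and 7.51 after 4 h, and 7.58 and 7.51 after 8 h. The mutant dark arrays of both genes stood above the wild type ones, whereas at 4 h FK overlapped and SMO1-1 did not. SMO1-1 differed by 0.17 ± 0.045 (adjusted p = 0.03, limma), and DWF4, whose values are given above, by 0.18 ± 0.050 (adjusted p = 0.036, limma). These 3 calls were not steady: FK was lost in 16 alternatives, DWF4 in 14 and SMO1-1 in 9 (adjusted p up to 0.104, 0.0968 and 0.0901, limma), and without wild type 4 h replicate 1, among other arrays, CYP90D1 alone passed. The epidermal marker PDF1 was also higher in jmj17-1, by 0.24 ± 0.056 in the average (adjusted p = 0.0156, limma) and 0.46 ± 0.12 at 2 h (adjusted p = 0.0356, limma), while the other measured one, KCS6, differed by 0.052 in the average and did not pass. The summed epidermal markers were 3001 to 3287 in jmj17-1 against 2766 to 2923 in wild type in the dark, 2815 to 3122 against 2511 to 2656 at 2 h, 3301 to 3341 against 2657 to 2922 at 4 h, and 2200 to 2395 against 2247 to 2375 at 8 h. They were thus higher in the mutant without overlap at all times but 8 h, and the part of epidermal tissue in these genotype differences was not tested.

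Whether the light response itself differed between genotypes was tested as an interaction with the dark arrays as the base. At 4 h 0 members passed, where 0.102% of all probe sets did (0.0876% higher and 0.0146% lower), with 2 at an unadjusted p under 0.05 (limma), beside 13.0% of all probe sets. At 8 h 0 passed, where 1.14% did (0.511% higher and 0.628% lower), with 4 at an unadjusted p under 0.05 (limma), beside 20.4% of all probe sets. With array weights 2, SMT3 and BR6OX2, passed at 8 h. BR6OX2 had an interaction of -0.54 ± 0.14 (adjusted p = 0.0589, limma), since it was 0.32 above dark in wild type and -0.22 from dark in the mutant, and without wild type dark replicate 1 it passed. BAS1 had 0.49 ± 0.25 (adjusted p = 0.29, limma).

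Other enzymes of the same routes were taken from a list of 28 genes for isoprenoid and sterol synthesis, of which 18 were measured. In wild type 11 of these had fallen and 4 had risen by 2 h, 10 and 5 by 4 h, and 11 and 4 by 8 h. The 15 of 18 that passed at each time stand beside 89.5%, 71.5% and 80.3% of all probe sets at 2, 4 and 8 h, those that fell beside 49.0%, 40.1% and 48.6%, and those that rose beside 40.5%, 31.3% and 31.7%. The largest fall of the list at 8 h was that of HMGS (AT4G11820), HMG-CoA synthase, the step before HMG1. HMGS in wild type was 8.62, 8.74 and 8.60 in the dark, 8.09 and 8.29 after 2 h, 7.84 and 7.84 after 4 h, and 7.34 and 7.41 after 8 h. Its values fell from each time to the next without overlap, and the difference at 8 h was -1.28 ± 0.083 (adjusted p = 1.89e-09, limma), a 2.43-fold fall.

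Of the squalene epoxidases, which put the oxygen on squalene before ring closure, 4 were measured in this list, and 3 of them had risen at 8 h, where 31.7% of all probe sets rose. The fourth, SQE2, differed from dark by -0.41, 0.56 and -0.017 and did not pass at 8 h. Its wild type 2 h signal was dim, with 10.6% of probe sets dimmer still. SQE3 (AT4G37760) in wild type was 6.78, 6.82 and 6.95 in the dark, 9.93 and 9.96 after 2 h, 10.04 and 9.96 after 4 h, and 10.27 and 10.54 after 8 h. SQE3 in jmj17-1 was 7.14, 6.97 and 6.64 in the dark, 9.93 and 10.06 after 2 h, 10.27 and 10.31 after 4 h, and 10.51 and 10.37 after 8 h. Light and dark arrays were far apart in both genotypes, and SQE3 had risen 8.53-fold by 2 h (3.09 ± 0.12) and 11.7-fold by 8 h (3.55 ± 0.12, adjusted p = 2.4e-12, limma). SQE5 (AT5G24150) and SQE6 (AT5G24160) are close paralogs, and how far their probes cross-hybridize was not tested. SQE5 in wild type was 4.22, 4.56 and 4.50 in the dark, 5.74 and 5.92 after 2 h, 6.01 and 5.93 after 4 h, and 7.25 and 7.26 after 8 h. SQE6 in wild type was 4.87, 4.52 and 4.81 in the dark, 5.55 and 5.36 after 2 h, 6.39 and 5.96 after 4 h, and 6.86 and 6.95 after 8 h. Neither overlapped its dark arrays at any light time: SQE5 rose by 2.83 ± 0.11 at 8 h and SQE6 by 2.17 ± 0.24 (adjusted p = 6.76e-07, limma). Their wild type dark signals were dim, with 8.19% and 10.9% of probe sets dimmer still, and without detection calls the size of these rises is not established. SQE5 was also higher in mutant seedlings at 2 h (0.46 ± 0.12) and averaged over times (0.28 ± 0.056, adjusted p = 0.00561, limma), the first lost in 7 alternatives. SQS2 (AT4G34650), a second squalene synthase gene, rose in wild type by 1.13 ± 0.099 at 2 h and 0.82 ± 0.099 at 8 h, from a dark signal that was as dim, with 10.7% of probe sets dimmer still, so the size of its rise is not established either.

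**Figure D4:**
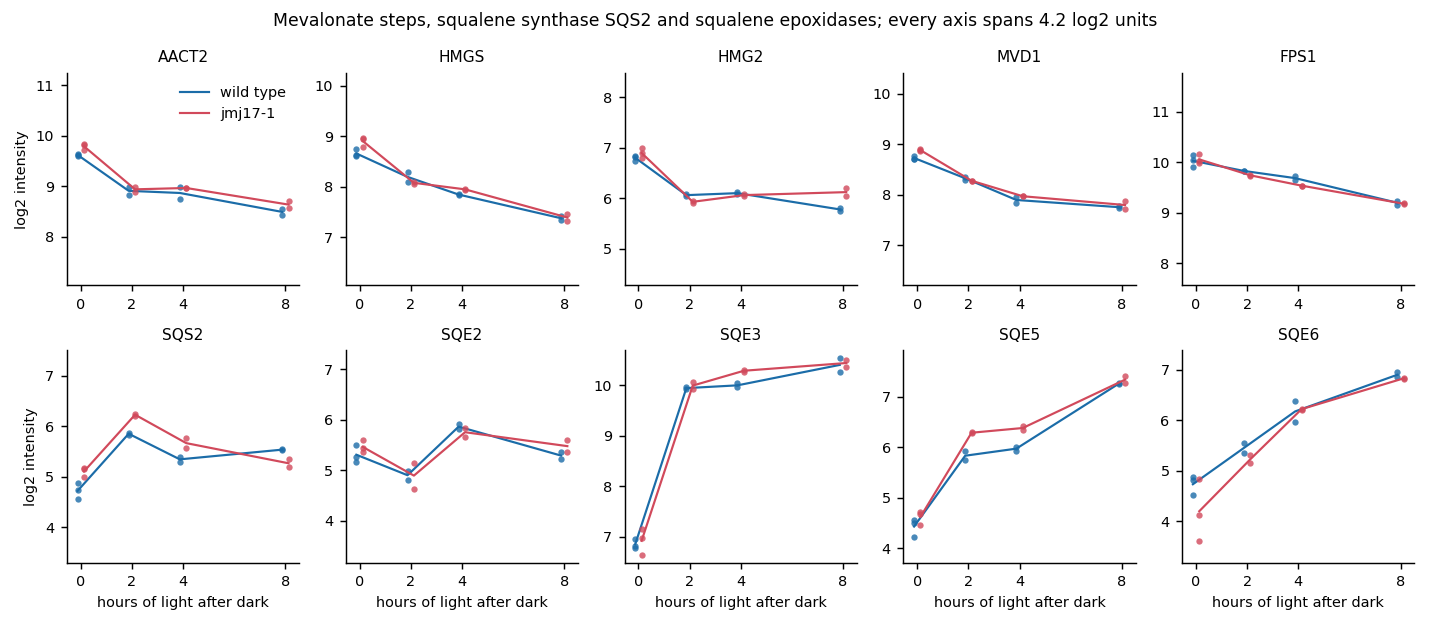
Log2 intensity (vertical axes, all of the same span) against hours of light (horizontal axes) for 10 genes of the mevalonate route, squalene synthase SQS2 and squalene epoxidases, chosen for the plot with their values known; points are arrays and lines join group means of wild type (blue) and jmj17-1 (red). SQE3, SQE5 and SQE6 climb in the light in both genotypes while AACT2, HMGS, HMG2, MVD1 and FPS1 decline.

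Of 6 further genes for brassinosteroid turnover 2 were measured. SOT12 (AT2G03760), a sulfotransferase that takes brassinosteroids and salicylic acid, was 6.56, 6.90 and 7.28 in the dark, 9.82 and 9.86 after 2 h, 8.71 and 8.11 after 4 h, and 7.70 and 7.82 after 8 h in wild type. SOT12 in jmj17-1 was 6.43, 6.14 and 6.34 in the dark, 9.25 and 9.33 after 2 h, 7.48 and 7.09 after 4 h, and 8.10 and 8.07 after 8 h. It peaked at 2 h, above all other times in each genotype, 7.59-fold over dark in wild type (2.92 ± 0.19, adjusted p = 2.31e-09, limma). SOT12 was lower in mutant seedlings at 4 h (-1.12 ± 0.21, adjusted p = 0.0101, limma) and in the average (-0.49 ± 0.099), and the 4 h call was lost without wild type 4 h replicate 1 or mutant 4 h replicate 2 (adjusted p up to 0.163, limma). The other gene, BEN1, a reductase-like protein that lowers brassinosteroids, rose at 2 h in wild type (0.49 ± 0.087) and did not pass at 8 h (-0.14).

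In the signalling list, 13 of 30 genes were measured. In wild type 11 had fallen and 1 had risen at 2 h, 9 and 0 at 4 h, and 9 and 0 at 8 h. Over all probe sets 49.0% fell and 40.5% rose at 2 h, 40.1% and 31.3% at 4 h, and 48.6% and 31.7% at 8 h. The receptor kinase BRI1 (AT4G39400) was 9.61, 9.55 and 9.64 in the dark, 9.32 and 9.40 after 2 h, 9.06 and 9.22 after 4 h, and 8.82 and 8.65 after 8 h in wild type. Every light array was below every dark array, and at 8 h BRI1 was 1.82-fold lower (-0.86 ± 0.087, adjusted p = 2.26e-07, limma). The largest falls at 8 h were those of transcription factors: BEH2 and BEH4, homologs of BZR1, at -1.33 ± 0.091 and -1.12 ± 0.090, and BIM1, a partner of BES1, at -1.27 ± 0.11. BEH4 had already reached -1.48 ± 0.090 at 2 h, when BIM1 stood at -0.17 ± 0.11 and had not passed.

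In the response list, 8 of 12 genes were measured, and at 2 h and at 8 h in wild type 4 had fallen and 4 had risen, which is near the share of all probe sets (49.0% and 40.5% at 2 h, 48.6% and 31.7% at 8 h). PRE1 (AT5G39860), a small helix-loop-helix protein that promotes cell elongation, was 7.29, 7.46 and 7.10 in the dark, 3.82 and 4.41 after 2 h, 5.75 and 5.58 after 4 h, and 3.70 and 3.59 after 8 h in wild type. Its 2 h and 8 h arrays were the lowest. After 2 h and 8 h the signal was among the dimmest 5% of probe sets, so the size of the fall (-3.17 ± 0.18 and -3.64 ± 0.18) is not established, while at 4 h the difference was -1.62 ± 0.18 (adjusted p = 1.71e-06, limma). SAUR15 (AT4G38850), a small gene induced by auxin and brassinosteroid, was 7.33, 7.66 and 7.57 in the dark, 5.28 and 6.03 after 2 h, 7.33 and 7.66 after 4 h, and 5.85 and 5.50 after 8 h in wild type. SAUR15 was low at 2 h (-1.86 ± 0.20), overlapped dark at 4 h (-0.024 ± 0.20, not passing) and was low again at 8 h (-1.85 ± 0.20). IBH1, which opposes cell elongation, fell by 1.52 ± 0.11 at 8 h, and BRS1, a carboxypeptidase of the receptor pathway, rose by 1.24 ± 0.15. Between genotypes, TCH4, a cell wall xyloglucan enzyme, was higher in jmj17-1 at 8 h (0.63 ± 0.11, adjusted p = 0.0107, limma). That call was lost without either wild type 8 h replicate or mutant 8 h replicate 2. The TCH4 mean was lower in jmj17-1 than in wild type at 2 h (11.21 against 11.43) and 4 h (10.58 against 10.87). In the dark it was 9.51 against 9.37. EXO and BRS1 were higher in the average (0.28 ± 0.071 and 0.33 ± 0.081), calls lost in 6 and 4 alternatives, and PHI-1, an EXO relative, was lower at 2 h (-0.39 ± 0.11, lost in 16 alternatives) and higher at 8 h (1.17 ± 0.11).

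**Figure D5:**
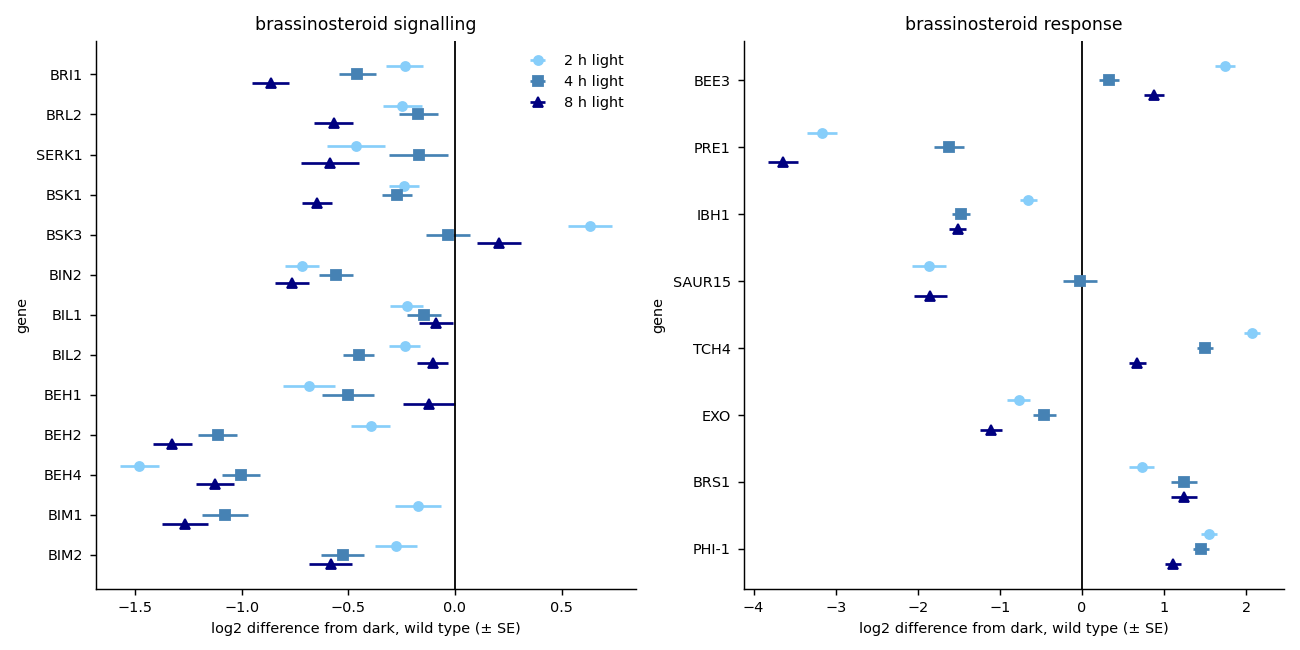
Log2 difference from dark in wild type (horizontal axes) with its standard error for the measured brassinosteroid signalling (left) and response (right) genes (vertical axes), after 2, 4 and 8 h of light. Signalling genes lie mostly left of 0, and response genes lie on both sides.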

How the data were processed

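Total RNA of whole seedlings was hybridized to 18 ATH1 arrays. The submitters' processing notes name GCOS 1.4. RMA summarization and quantile normalization were done by the authors, per the file headers, and 6847 of 22810 probe sets were kept by a moderated t-test of a comparison that is not stated. The deposited intensity values, on the linear scale (3.22 to 10892.5, array medians 144 to 161), were taken by column title and log2 transformed. The same deposited table gives the authors' log2 fold change of the dark groups and 18 normalized columns, which were not used. Centred log2 values of all probe sets are in another deposited file; 2 of its columns equal the array of their own title and 16 that of another, so it served only as an alternative, by the array each column equals.

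Probe sets naming 1 locus (6514; 285 named several and 48 none) were used, the brightest for each gene, with names checked against RefSeq (TAIR10.1). The fit used R 4.3.3 and limma 3.58.1 (lmFit, contrasts.fit, eBayes), with 10 residual and 4.91 prior degrees of freedom and a prior SD of 0.114, on all 18 arrays with 1 mean per group. There were 15 tested comparisons, at an adjusted p under 0.05, and 2 were described without a test (the mutant at 2 h against dark and the interaction at 2 h). The fit was tested on simulated data. Alternatives were 7 other settings and 18 fits leaving out 1 array. The labels give no batch. The JMJ17 gene has no probe set of 1 locus in the table and is not analysed here. Figures used matplotlib 3.10.9 under Python 3.11.15.

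The members and lists were chosen with earlier results of these data known. Values of every array are given for members passing between genotypes or in an interaction and for the 10 members with the largest difference among those passing in wild type light. Of the other lists, up to 4 genes with the largest 8 h wild type difference and all that passed between genotypes are named.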

Additional observations from a re-analysis of the deposited data

Results flagged for a closer look

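BR6OX2 was marked because its light responses after 8 h had opposite signs in the genotypes, with every wild type 8 h array above the dark ones and every mutant 8 h array below: the interaction was -0.5445, with an adjusted p of 0.0589 (limma), which did not pass. SQS2 was marked by an interaction at 8 h that passed: it was -0.6535 (adjusted p = 0.0392, limma), from mutant values of 4.99, 5.17 and 5.16 in the dark, 6.21 and 6.25 after 2 h, 5.77 and 5.56 after 4 h, and 5.19 and 5.34 after 8 h, and 11 of the alternatives lost it (adjusted p up to 0.191, limma). In wild type SQS2 was 4.87, 4.73 and 4.56 in the dark, 5.83 and 5.88 after 2 h, 5.29 and 5.40 after 4 h, and 5.54 and 5.53 after 8 h, and the mutant was higher in the dark (0.38 ± 0.088), a call lost in 16 alternatives, and in the average (0.20 ± 0.052). The wild type dark signal of SQS2 was dim, with 10.7% of probe sets dimmer still, so the sizes of this interaction and of the dark and average differences are not established. PHI-1 was marked by an interaction at 8 h of 1.4545 (adjusted p = 0.000168, limma). CYP710A2, a sterol desaturase that makes brassicasterol in Arabidopsis, was marked because at 4 h it stood below dark in both wild type arrays (6.84 and 6.51 against 7.00, 6.94 and 7.31) and above dark in both mutant arrays (7.28 and 7.06 against 6.57, 6.10 and 6.55). Its interaction was 1.1762 (adjusted p = 0.0903, limma), which did not pass. Groups of 2 or 3 arrays are too small to settle whether a single array is outlying. The fits leaving out 1 array show only how far a result rests on it.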

How the results depend on the processing

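Over 102 passing results of single members, 74 kept their call in every alternative, 172 repeats lost it, 2364 kept it and 0 turned the direction. With 1 array left out, the number of members passing in wild type ran from 12 to 17 at 2 h, 13 to 14 at 4 h, 12 to 13 at 8 h, 4 to 9 from 2 to 4 h and 6 to 9 from 4 to 8 h. In the mutant it ran from 14 to 14 at 4 h, 12 to 14 at 8 h and 5 to 7 from 4 to 8 h. Between genotypes it ran from 0 to 2 in the dark, 1 to 1 at 2 h, 0 to 0 at 4 h, 0 to 2 at 8 h and 1 to 6 in the average, and for the interactions from 0 to 0 at 4 h and 0 to 1 at 8 h. From 2 to 4 h in wild type, the 9 members became 4 with array weights, 3 with the arrays compared alone and 5 with every probe set of the second file. The genotype count at 2 h went from 1 to 0 both with the dimmest 40% of probe sets left out, which removed CYP90D1, and with the arrays compared alone. At 8 h it went from 1 to 2, with SMT1 added, with the dimmest 40% left out and with array weights. The average went from 4 to 1 with every probe set of the second file and to 2 with the replicate number as a block. The interaction at 8 h went from 0 to 2 with array weights. The cause of these changes was not tested. Replicate numbers are shared across groups and were not taken to pair the arrays: the deviations of same-numbered arrays of the genotypes correlated at -0.034, -0.025 and 0.145 in the dark, and at 0.092, 0.036 and 0.215 at 2, 4 and 8 h, while same-numbered dark and light arrays of a genotype ran from -0.204 to 0.169. With this block no other count of members changed by more than 1.5 times. The few arrays per light group limit all genotype results. Signals near the lower end of the 6847 probe sets hold only a bound. Among the genes described above, such signals were those of PRE1, SQE5, SQE6 and SQS2, and at 2 h those of CYP90D1, 3BETAHSD/D2 and SQE2. Some genes that enter only the list counts were dim too. Such were SMO1-2 and SERK1, with 6.5% and 7.13% of probe sets dimmer still in wild type at 2 h.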
